A study of Mus musculus with 8 samples.

Results

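The aortic transcriptome of mice killed 3 weeks after the end of an angiotensin II infusion was compared with that of mice killed 2 weeks after it. The comparison takes 4 of the 8 RNA-sequencing libraries of the study, the 2 labelled AngII+3W against the 2 labelled AngII+2W, as their labels assign them, and covers all genes. Both groups were male C57BL6/J mice that carried osmotic minipumps from 11 weeks of age. The pumps delivered 2.8 mg/kg/day of angiotensin II for 2 weeks, and the mice were then left without the peptide. The AngII+3W mice were therefore 1 week older as well as 1 week further from the infusion, and these cannot be told apart. The other 4 libraries entered the same model and give the background levels. Of these, 2 were from untreated littermates that the study calls age-matched (CTRL) and 2 from mice at the end of the infusion (AngII). The labels do not give the age at which the CTRL mice were killed. A library is a pool of aortic tissue from 2 mice, so the spread between libraries is the spread between pools.

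Angiotensin II constricts arteries through receptors on vascular smooth muscle, raises blood pressure and promotes growth and matrix deposition in the vessel wall. The aorta itself is built of smooth muscle layers and elastic lamellae, lined by endothelium and wrapped in an adventitia of fibroblasts, nerves and fat. Its cells also run a circadian clock. In that clock the activators Clock, Arntl (Bmal1) and Npas2 bind E-boxes and switch on their own repressors (the Per and Cry genes, Ciart, Bhlhe40 and Bhlhe41), the Rev-erb repressors Nr1d1 and Nr1d2 and the output factors Dbp, Tef and Hlf. Rev-erb proteins in turn repress Arntl, Npas2 and Nfil3 through ROR elements, so that activators and outputs peak in opposite parts of the day.

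The 4 libraries held 18130441 to 21498200 counts, and 3 counts, the limit that a count of 0 allows, were 0.14 to 0.165 CPM (counts per TMM-scaled library size). Smooth muscle markers were abundant in every library, with a summed level of 3905 and 3532 CPM in AngII+2W and 1730 and 3360 CPM in AngII+3W. AngII+3W replicate 1 stood apart from the other 3. It held 19690 CPM of 22 genes shared by heart and skeletal muscle, against 1080 CPM in AngII+3W replicate 2 and 695.2 and 359.7 CPM in AngII+2W. Of 20 skeletal muscle markers, 14 passed the filter on low counts, and only these were summed. They came to 3416 CPM in that library, against 45.64 CPM in its partner and 52.2 and 37.08 CPM in AngII+2W. Cardiac markers were also high in that library, at 6598 CPM against 511.5, 264.6 and 89.56 CPM, and CTRL held 5797 and 2587 CPM. Values without this library are given beside the results that it moved most, and for the lists and the remaining genes in a paragraph near the end. The part of striated muscle in the other differences was not tested. The study took one piece of each aorta for RNA, and whether that piece was the same segment in every group is not given in the sources used here.

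In the comparison of all 17182 genes that passed the filter on low counts, 0 genes (0%) passed a false discovery rate (FDR) of 0.05 in edgeR's quasi-likelihood test. At an FDR of 0.1 there were 2 genes (0.0116%), Arntl and Tmem120a, both at 0.0901, and the next in order were Dbp and Bhlhe41, both at 0.142. At an unadjusted p below 0.05 there were 1517 genes (8.83%), of which 792 (4.61%) were higher and 725 (4.22%) lower in AngII+3W. In 6952 genes (40.5%) the groups did not overlap, 3562 (20.7%) with both AngII+3W libraries above and 3390 (19.7%) with both below. The median log2 fold change over all genes was 0.01. Below an FDR of 0.05 there were 216 genes with DESeq2, 273 with the likelihood ratio test of edgeR and 0 with limma-voom, which had 1306 at an unadjusted p below 0.05. None of the single differences below therefore passed the main test at 0.05. Each FDR given is that of the quasi-likelihood test over all genes, and genes of a list are counted at an unadjusted p below 0.05 of the same test. Each such count is to be read beside the shares of all genes, 4.61% higher and 4.22% lower. No list was tested against these shares. Directions are written as higher or lower in AngII+3W, and log2 values are fold changes of AngII+3W over AngII+2W. Where pairs of levels are joined by the word against, replicates 1 and 2 of AngII+2W come first and those of AngII+3W second.

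**Figure D1:**
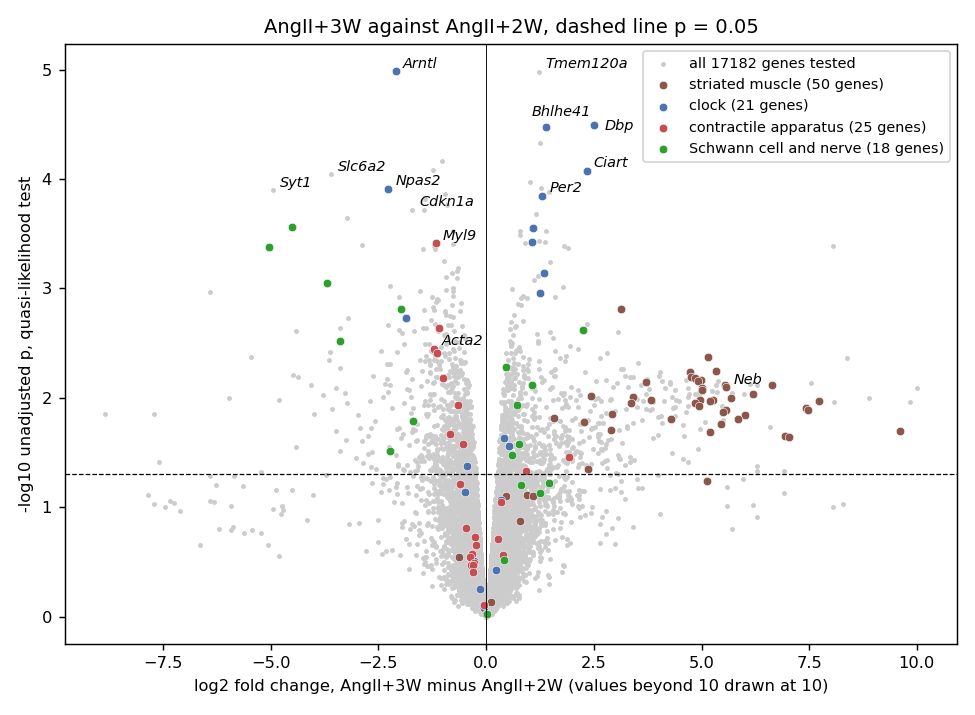
Log2 fold change (AngII+3W minus AngII+2W, x axis, values beyond 10 drawn at 10) against -log10 of the unadjusted p of the quasi-likelihood test (y axis) for all 17182 genes tested, with 4 groups of genes in colour and a dashed line at an unadjusted p of 0.05. Clock genes lie at the top on both sides, nerve genes lie on both sides, and striated muscle genes form a cloud at large positive fold changes and moderate p.

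The clearest difference was in the circadian clock, where the activators Arntl and Npas2 were lower and most repressors and outputs higher at 3 weeks. Arntl (ENSMUSG00000055116, chromosome 7, 113207465 to 113314126 on the forward strand, GRCm38) was at 43.3 and 34.7 CPM in AngII+2W and at 8.11 and 10.1 CPM in AngII+3W. It was thus 4.28-fold lower, with a log2 fold change of -2.10 ± 0.21 (SE), FDR = 0.0901. Both AngII+3W libraries also lay below those of CTRL (35.6 and 26.3 CPM) and AngII (40.9 and 36.1 CPM), so that the AngII+3W pair was the one apart from the other 6 libraries. Npas2, the partner that can replace Clock, was at 27.1 and 19.2 CPM against 3.17 and 6.44 CPM (log2 -2.27 ± 0.32, FDR = 0.144). Nfil3, a repressor that competes with Dbp for D-boxes, was at 26.5 and 18.9 CPM against 5.21 and 7.25 CPM (log2 -1.87 ± 0.40, FDR = 0.352). In Clock itself the difference was small, 162 and 144 CPM against 127 and 97.3 CPM (log2 -0.45, FDR = 0.542). Nfil3 was counted in the activator list of 8 genes although it is a repressor. That list held these 4 at an unadjusted p below 0.05, all lower. Rora (log2 -0.04), Rorb and Arntl2 (log2 0.36, FDR = 0.621) were among those that did not reach it.

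Opposite to the activators, Dbp, an output factor that binds D-boxes, was at 15.1 and 27.5 CPM in AngII+2W and at 104 and 138 CPM in AngII+3W. This was 5.69-fold higher (log2 2.51 ± 0.29, FDR = 0.142), and both libraries were above all 6 others, which reached 37.4 CPM at most. Ciart, a repressor of Clock and Arntl, was at 1.35 and 0.966 CPM against 6.23 and 5.53 CPM (log2 2.33 ± 0.31, FDR = 0.144). Bhlhe41, another E-box repressor, was at 13.5 and 17.7 CPM against 40.4 and 41.8 CPM (log2 1.40 ± 0.16, FDR = 0.142). The Per genes, which form the repressor complex, were not alike. Per2 was at 28.6 and 30.7 CPM against 60.9 and 84.9 CPM (FDR = 0.144) and Per3 at 63.6 and 94.4 CPM against 197 and 204 CPM (FDR = 0.253). Per1 overlapped, at 119 and 104 CPM against 95.7 and 164 CPM (log2 0.22, FDR = 0.836).

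The Rev-erb gene Nr1d2 stood at 77 and 100 CPM in AngII+2W and at 203 and 173 CPM in AngII+3W (FDR = 0.174), and its relative Nr1d1 at 133 and 134 CPM against 161 and 222 CPM (FDR = 0.482). The remaining output factors were also higher, Tef at 101 and 124 CPM against 231 and 237 CPM (FDR = 0.174) and Hlf at 28.7 and 28.4 CPM against 86.4 and 50.3 CPM (FDR = 0.3). Cry2, the cryptochrome repressor, was 1.33-fold higher (FDR = 0.463), while Cry1 (log2 -0.14) and Bhlhe40 (log2 -0.28) overlapped between groups. In all, 10 of the 13 repressors and outputs were higher at an unadjusted p below 0.05 and 0 lower, with a median log2 fold change of 1.08. Without AngII+3W replicate 1 the median was 0.96 and without replicate 2 it was 0.99, so the library with striated muscle RNA did not decide it. Of 12 genes that modify the clock proteins, such as kinases and ubiquitin ligases, only Usp2, a deubiquitinase and clock output, was below an unadjusted p of 0.05, at 18.1 and 13.5 CPM against 49.9 and 33.2 CPM. The labels give no time of day for the collection of tissue. The hour and the week of collection therefore cannot be told apart, for these genes or for any other gene compared here.

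**Figure D2:**
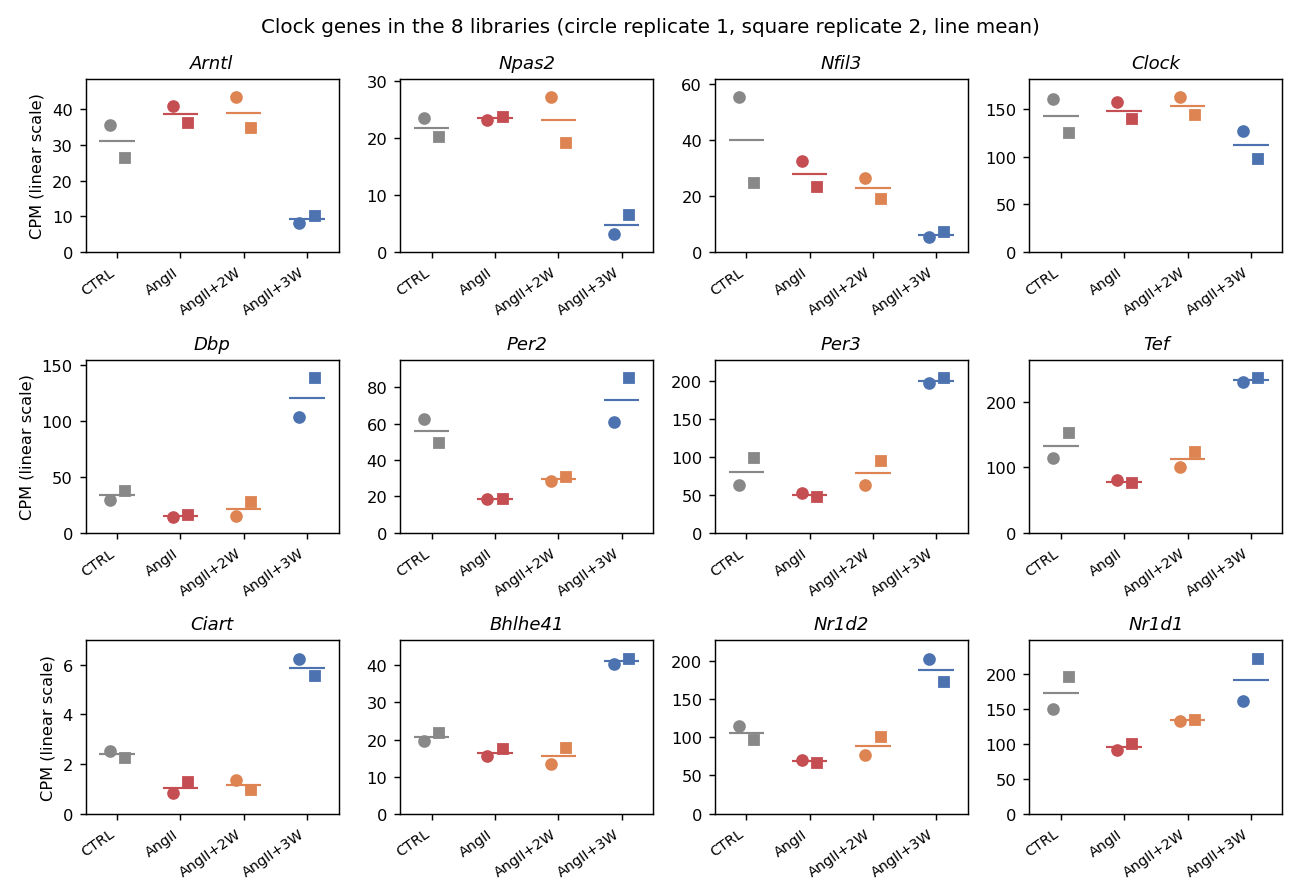
Levels of 12 clock genes in CPM (y axes, linear, from 0) in each of the 8 libraries by group (x axes), with circles for replicate 1, squares for replicate 2 and a line at the mean of the 2. In Arntl, Npas2, Nfil3 and Clock the AngII+3W libraries lie below all AngII+2W libraries, and in the 8 other genes they lie above them.

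Because E-boxes, ROR elements and D-boxes link these genes, the 250 bases before the start of each gene were read. The RefSeq promoter sequences (build GRCm38.p6) held 11 of the 13 repressors and outputs and 7 of the 8 genes of the activator list. The E-box CACGTG, searched on both strands, was present in 5 of the 11 repressors and outputs (Ciart, Bhlhe41, Tef, Per1 and Cry1) and 0 of the 7 activators, while 6.86% of all 27025 genes with a promoter sequence held it. Of these 5 genes, 3 were higher at an unadjusted p below 0.05 and Per1 and Cry1 were not. The D-box TTANGTAA was in 1 of 11 (Per3, in 2 places) and in 1 of the 7 genes of the activator list (Rorb, 95 bases before the start) against 2.44% of all genes. The ROR element (TAGGTCA or TGGGTCA) was in 1 of those 7 (Nfil3, itself a repressor) against 6.15% of all genes. The letters are a description of the sequence and show no binding. The 4 stretches below are printed because they carry these motifs beside the larger clock differences; they run 5′ to 3′ on the strand of the gene up to its start, with the motif in capitals.
Ciart (chr3:95882229-95882478, reverse strand), E-boxes: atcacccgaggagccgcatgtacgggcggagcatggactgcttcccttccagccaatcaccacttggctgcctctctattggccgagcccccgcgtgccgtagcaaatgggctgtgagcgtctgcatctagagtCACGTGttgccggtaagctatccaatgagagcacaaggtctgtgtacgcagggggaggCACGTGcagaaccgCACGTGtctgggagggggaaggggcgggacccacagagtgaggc
Bhlhe41 (chr6:145865421-145865670, reverse strand), E-box: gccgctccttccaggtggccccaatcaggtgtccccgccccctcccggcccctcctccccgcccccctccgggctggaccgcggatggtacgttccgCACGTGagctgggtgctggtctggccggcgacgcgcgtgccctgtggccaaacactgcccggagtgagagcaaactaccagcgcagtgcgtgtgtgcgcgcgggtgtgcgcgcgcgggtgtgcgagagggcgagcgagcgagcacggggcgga
Per3 (chr4:151044666-151044915, reverse strand), D-boxes: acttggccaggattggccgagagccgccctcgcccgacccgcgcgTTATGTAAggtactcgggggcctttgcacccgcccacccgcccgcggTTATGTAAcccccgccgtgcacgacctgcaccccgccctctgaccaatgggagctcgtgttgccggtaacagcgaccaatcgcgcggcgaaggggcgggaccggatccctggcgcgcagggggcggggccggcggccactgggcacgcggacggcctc
Nfil3 (chr13:52981040-52981289, reverse strand), ROR element read on the other strand: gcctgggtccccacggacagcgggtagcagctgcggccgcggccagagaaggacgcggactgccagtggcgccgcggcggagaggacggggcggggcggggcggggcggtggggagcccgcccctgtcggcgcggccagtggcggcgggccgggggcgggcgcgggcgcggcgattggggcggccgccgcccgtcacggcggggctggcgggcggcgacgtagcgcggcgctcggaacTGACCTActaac
The 3 E-boxes of Ciart begin 116, 58 and 44 bases before the start, the E-box of Bhlhe41 begins 153 bases before it, the D-boxes of Per3 205 and 158 bases before it, and the element of Nfil3 12 bases before it.

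Several genes of the smooth muscle contractile programme stood lower at 3 weeks than at 2 weeks. Acta2 (ENSMUSG00000035783, chromosome 19, 34241090 to 34255590 on the reverse strand), the smooth muscle actin, was at 1183 and 894 CPM in AngII+2W and at 349 and 550 CPM in AngII+3W. The difference was 2.31-fold (log2 -1.21 ± 0.29, FDR = 0.391), and the groups did not overlap. For orientation, CTRL held 3055 and 2243 CPM and AngII 506 and 663 CPM, so Acta2 at 2 weeks lay between AngII and CTRL and at 3 weeks overlapped AngII. Myl9, a regulatory light chain of smooth muscle myosin, was at 263 and 238 CPM against 91.3 and 131 CPM (log2 -1.17 ± 0.20, FDR = 0.174). Itga8, an integrin of contractile smooth muscle, was at 736 and 634 CPM against 236 and 390 CPM (FDR = 0.391), Tagln (SM22), an actin cross-linker, at 488 and 394 CPM against 159 and 280 CPM (FDR = 0.391), and Cnn1, calponin, at 134 and 113 CPM against 47.9 and 90.1 CPM (FDR = 0.454).

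Of the 25 contractile genes, 8 were lower at an unadjusted p below 0.05, these 5 with Kcnmb1, Synpo2 and Vcl, and 2 were higher, Des and Tpm1. Both groups of values were separate and lower at 3 weeks in 11 of the 25, against 19.7% of all genes. The median log2 fold change was -0.33 and depended on which AngII+3W library was used, being -0.12 without replicate 1 (5 genes lower and 1 higher) and -0.83 without replicate 2. AngII+3W replicate 1 had the lower value of the pair in each of the 8 genes. Without it, Acta2 was at log2 -0.92 (FDR = 0.676), Myl9 at -0.93 (FDR = 0.326) and Itga8 at -0.81 (FDR = 0.674), whereas Cnn1 (FDR = 0.826), Synpo2 (FDR = 0.802) and Vcl (FDR = 0.861) were above an unadjusted p of 0.05. Acta2 shares much of its coding sequence with the striated actins Acta1 and Actc1, so that reads may be divided between them with error; Actc1 was at 600 CPM in AngII+3W replicate 1 and at 37.5 CPM in replicate 2.

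Other core genes of the programme were not separated. Myh11, the smooth muscle myosin heavy chain, was at 1528 and 1534 CPM in AngII+2W and at 766 and 1579 CPM in AngII+3W (log2 -0.39, FDR = 0.792). Without replicate 1 its fold change turned to 0.04, and those of Flna, a filamin that links actin to the membrane, and Actn1, an alpha-actinin, turned to 0.12 and 0.11. Lmod1, which nucleates actin filaments, was at 180 and 180 CPM against 85.2 and 178 CPM, and Mylk, the myosin light chain kinase, at 397 and 374 CPM against 227 and 387 CPM, so that again AngII+3W replicate 2 was at the level of AngII+2W. Smtn, smoothelin, went the other way in that library (329 and 362 CPM against 281 and 625 CPM). Des and Tpm1, which striated muscle also uses, were high in AngII+3W replicate 1 alone, Des at 188 CPM against 26.1 CPM in replicate 2 and 28.3 and 28.4 CPM in AngII+2W. Among regulators of the programme 0 of 15 were below an unadjusted p of 0.05, with Myocd (myocardin) at 61.9 and 55.3 CPM against 41.3 and 59.2 CPM (FDR = 0.896) and Srf at 33.7 and 25.2 CPM against 24.3 and 24.3 CPM (FDR = 0.648).

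**Figure D3:**
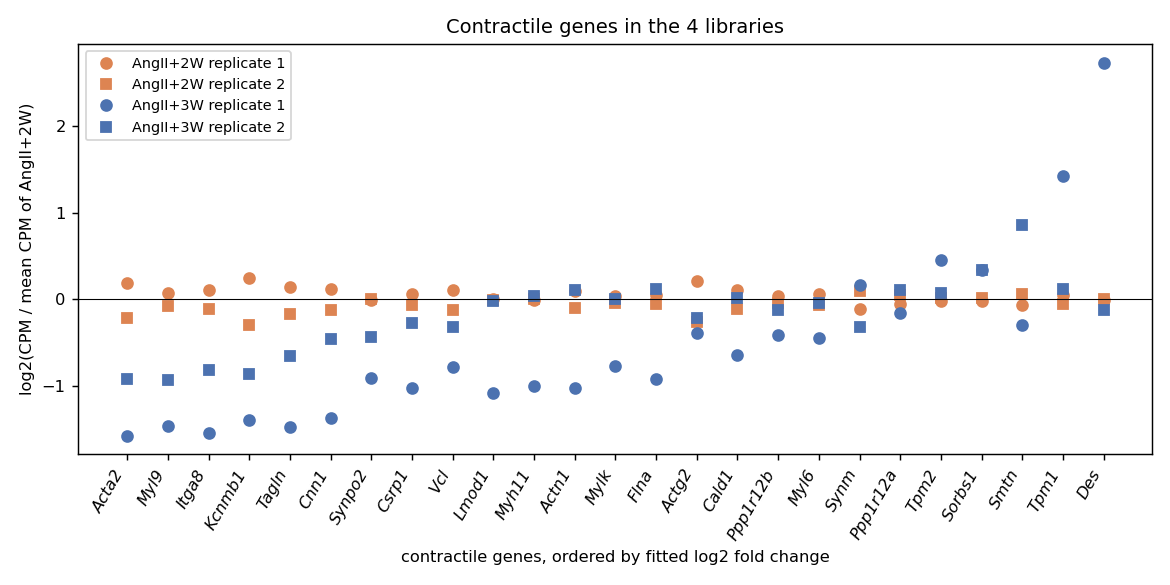
Level of each of 25 contractile genes in each of the 4 libraries as log2 of CPM over the mean CPM of AngII+2W (y axis), ordered by fitted fold change (x axis). In the genes from Acta2 to Cnn1 both AngII+3W libraries are below both AngII+2W libraries, in those from Lmod1 to Flna replicate 1 alone is low, and Tpm1 and Des are high in replicate 1 alone.

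A further list of 13 genes is the study's own set of transcripts that differed from CTRL in the same direction in AngII and in AngII+3W. They were selected on the AngII+3W libraries, so their direction here is no independent evidence. The same limit holds where they are counted in other lists, as Acta2, Myl9 and Synpo2 are above. It holds as well for Hspb1, Hsp90aa1, Trp53inp1 and Gucy1b1 in the lists below. Against CTRL, Ighg2b, an immunoglobulin heavy chain gene, was higher at both times (log2 5.01 and 3.07) and the other 12 genes were lower. Against AngII+2W all 13 log2 fold changes were below 0, 12 without overlap and 11 at an unadjusted p below 0.05 (Ighg2b and Gm13034 were not), with a median log2 fold change of -0.80 (-0.88 without AngII+3W replicate 1). Besides Acta2, Myl9 and Synpo2 they include Kcnc4, a voltage-gated potassium channel, at 4.15 and 6.22 CPM against 2.26 and 2.31 CPM (FDR = 0.391), and Lancl3 at 10.4 and 7.83 CPM against 4.83 and 3.65 CPM (FDR = 0.391). Xk, a membrane transport protein, was at 15.7 and 13.1 CPM against 8.7 and 7.84 CPM (FDR = 0.391). In these 3 genes the AngII+2W libraries lay between AngII+3W and CTRL, where Kcnc4 was at 18.9 and 14.6 CPM, Lancl3 at 26.2 and 16.2 CPM and Xk at 33.8 and 23.1 CPM.

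Among receptors that set vascular tone, Ramp1, which turns the calcitonin receptor-like receptor into the receptor of the vasodilator CGRP, was at 15.4 and 12.9 CPM in AngII+2W and at 5.69 and 6.28 CPM in AngII+3W (2.37-fold lower, log2 -1.24 ± 0.16, FDR = 0.144). AngII lay at 4.64 and 5.16 CPM and CTRL at 21.4 and 20.2 CPM, so Ramp1 at 2 weeks also lay between AngII and CTRL. Ramp1 was also counted in a list of 22 vasoconstrictor receptors and Rgs genes, although it belongs to neither class. In that list 7 genes were lower and 0 higher at an unadjusted p below 0.05, with a median of -0.30. They were Ramp1, Rgs2 and Rgs5 and Rgs4, which shorten G protein signals, Avpr1a, the vasopressin receptor (9.52 and 6.06 CPM against 1.88 and 3.49 CPM, FDR = 0.391), P2rx1, an ATP-gated channel, and Htr1b, a serotonin receptor. Rgs5 was at 568 and 654 CPM against 465 and 350 CPM (FDR = 0.442) and Rgs2 at 333 and 338 CPM against 185 and 223 CPM (FDR = 0.391).

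Among 16 genes of the cGMP pathway, which relaxes smooth muscle, both subunits of soluble guanylate cyclase were lower, Gucy1a1 at 82.3 and 87.3 CPM against 68.4 and 60.5 CPM (FDR = 0.534) and Gucy1b1 at 34.8 and 35.1 CPM against 28.4 and 24.9 CPM (FDR = 0.561). Npr1, the receptor of atrial natriuretic peptide, and Rgs2 were lower as well, and Npr3, the clearance receptor, was higher (FDR = 0.482). The second gene that was higher, Pln, regulates the calcium pump of heart muscle, and at 253 CPM in AngII+3W replicate 1 against 12.7 CPM in replicate 2 it followed the cardiac markers. In the potassium channels 5 of 25 were higher and 3 lower. Kcna1, Kcna2 and Kcna6, Shaker-type channels, were higher, Kcna2 at 24.5 and 28.1 CPM against 35.8 and 36.2 CPM (FDR = 0.391), and Kcna5, Kcnc4 and Kcnmb1, the subunit that tunes the smooth muscle BK channel, were lower. Of 19 genes of the renin-angiotensin system 0 were below an unadjusted p of 0.05, and their median was -0.20.

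Nerve genes split by cell type. Sympathetic neurons send axons into the adventitia and store noradrenaline, while Schwann cells wrap the axons of nerves beside the vessel. Slc6a2, the noradrenaline transporter, was at 19 and 47.8 CPM in AngII+2W and at 2.74 and 2.74 CPM in AngII+3W (12.2-fold lower, log2 -3.60 ± 0.48, FDR = 0.144). CTRL held 5.5 and 2.87 CPM and AngII 5.72 and 5.26 CPM, so here the AngII+2W pair was the one apart. Dbh, the enzyme that makes noradrenaline, was at 5.32 and 16.9 CPM against 0.591 and 0.376 CPM (FDR = 0.174), and Syt1, the calcium sensor of synaptic vesicles, at 5.08 and 15.2 CPM against 0.269 and 0.376 CPM (FDR = 0.144). Th, the first enzyme of catecholamine synthesis, had 43 and 135 counts in AngII+2W and 1 and 4 counts in AngII+3W, and 3 to 7 counts in the CTRL and AngII libraries. In each of these 4 genes AngII+2W replicate 2 was more than 2 times higher than replicate 1, and both were above all 6 other libraries.

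Snap25, Tubb3, Prph, Nefl and Nefm, which build synaptic vesicle fusion, microtubules and neurofilaments, had the same order, with Tubb3 at 3.03 and 9.61 CPM against 0.215 and 0.752 CPM (FDR = 0.284). Other genes of sympathetic neurons, looked up after these values had been seen, also followed it. Npy, a cotransmitter, had 12 and 44 counts against 0 and 1, and Chrna3, the ganglionic acetylcholine receptor, 41 and 82 counts against 5 and 6. Schwann cell genes went the opposite way. Prx, a myelin protein, was at 7.42 and 7.14 CPM against 12.9 and 17.8 CPM (FDR = 0.391), Mbp at 40.3 and 41.4 CPM against 55.6 and 57.3 CPM (FDR = 0.391), and Sox10, the factor that defines Schwann cells, at 3.08 and 3.06 CPM against 4.67 and 5.48 CPM (FDR = 0.404). Over the list of 18 nerve genes 6 were higher and 7 lower at an unadjusted p below 0.05, and the 7 lower ones were neuronal and the 6 higher ones of Schwann cells. In tissue pools, fewer cells of a type, less RNA per cell and a difference in the tissue taken at dissection cannot be told apart.

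**Figure D4:**
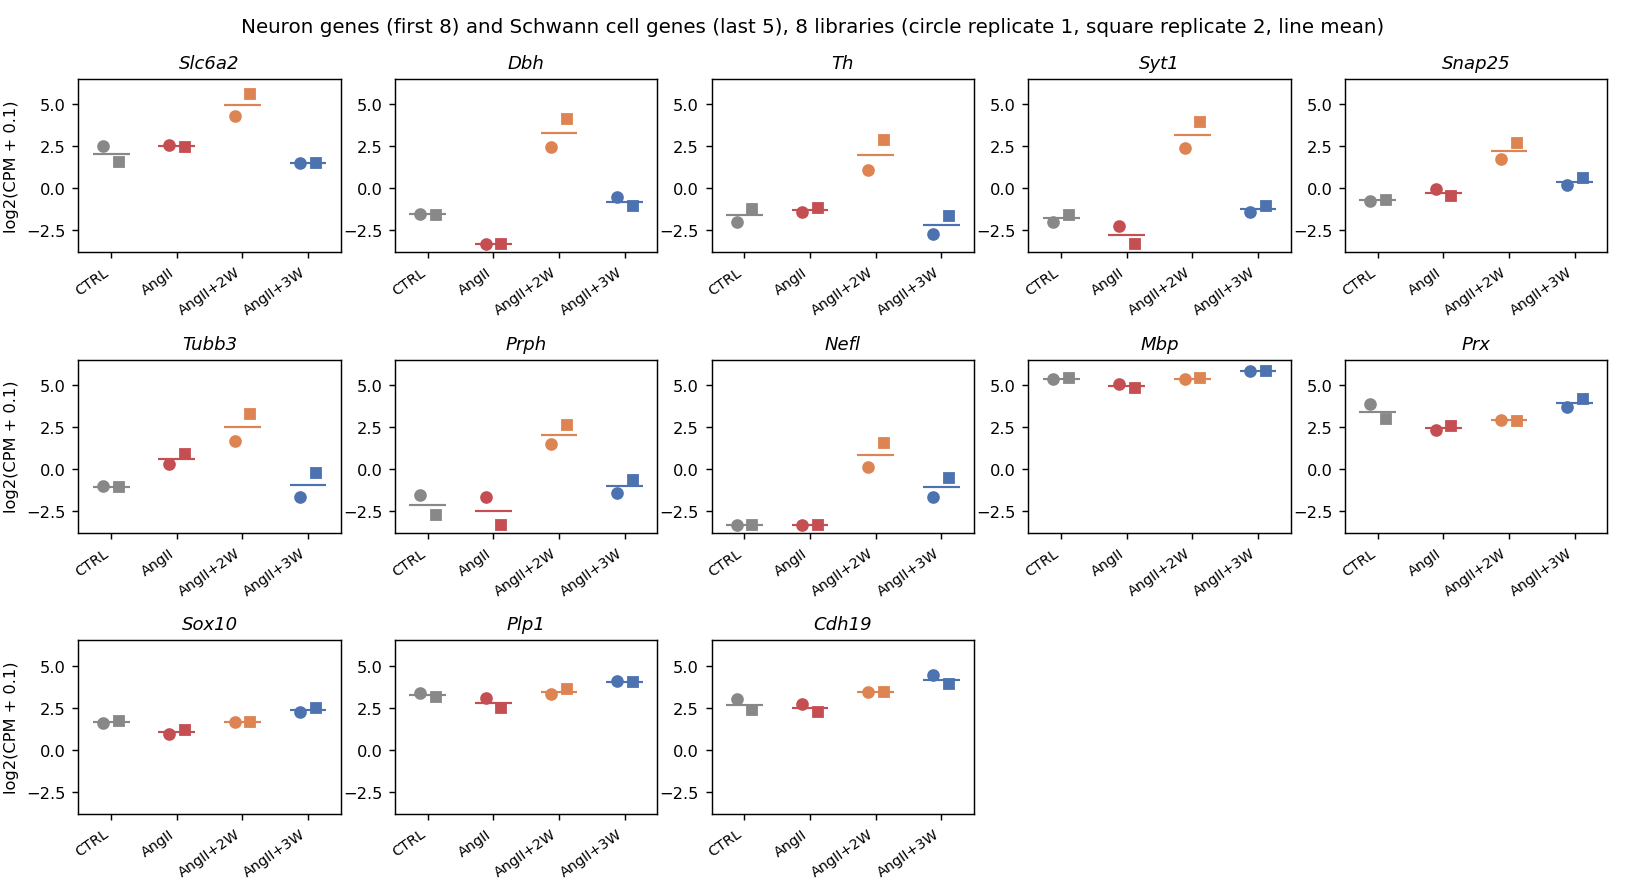
Log2(CPM + 0.1) (y axes, the same scale in every panel) of 8 neuron genes and 5 Schwann cell genes in the 8 libraries by group (x axes), with circles for replicate 1, squares for replicate 2 and a line at their mean. The neuron genes are highest in both AngII+2W libraries, and the Schwann cell genes are higher in AngII+3W than in AngII+2W.

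Chaperones and stress genes were lower at 3 weeks in part. Hspb1 (Hsp27), a small chaperone that binds actin filaments, was at 66.1 and 76 CPM in AngII+2W and at 35.8 and 40.4 CPM in AngII+3W (1.86-fold lower, log2 -0.90 ± 0.13, FDR = 0.157), with CTRL at 153 and 146 CPM and AngII at 54.1 and 48.4 CPM. Hsph1, a co-chaperone of the Hsp70 family, was at 79.6 and 84.9 CPM against 41.6 and 34.2 CPM (FDR = 0.374), and Hspa8, the constitutive Hsp70, at 758 and 820 CPM against 554 and 436 CPM (FDR = 0.391). Ahsa1, Stip1 and Hsp90aa1, the Hsp90 machinery, were 1.29-fold, 1.27-fold and 1.34-fold lower. Of 29 heat shock genes tested, 6 were lower and 2 higher at an unadjusted p below 0.05, and the 2 higher, Cryab and Hspb7, are abundant in striated muscle and were high in AngII+3W replicate 1 (Cryab 109 CPM against 35.4 CPM in replicate 2). The palindrome GAANNTTC, a pair of heat shock element units, was found within 250 bases before the start in 9 of the 24 heat shock genes with a promoter sequence and in 7.73% of all genes. Of the lower genes with a promoter sequence, only Hspb1 held it, and Hsph1, Ahsa1 and Stip1 did not. The palindrome occurred 2 times in the promoter of Hspb1, the heat shock gene with the smallest p, 117 and 97 bases before the start, as shown in capitals here.
Hspb1 (chr5:135887669-135887918, forward strand): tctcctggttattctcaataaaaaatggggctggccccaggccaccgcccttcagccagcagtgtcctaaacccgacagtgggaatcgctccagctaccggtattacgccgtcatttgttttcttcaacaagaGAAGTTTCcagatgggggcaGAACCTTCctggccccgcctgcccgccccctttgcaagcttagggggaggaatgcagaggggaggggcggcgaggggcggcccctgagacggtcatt

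Of 5 cold-inducible RNA-binding genes, which respond to a fall in temperature and also cycle with the day, 3 were higher, among them Cirbp at 20.7 and 23.6 CPM against 30.6 and 35.5 CPM (FDR = 0.391) and Srsf5 (FDR = 0.396). In the unfolded protein response 8 of 21 genes were lower and 0 higher. Sdf2l1, a cochaperone of the endoplasmic reticulum, was at 5.88 and 5.74 CPM against 2.09 and 2.9 CPM (FDR = 0.329) and Manf, a secreted stress protein, at 29.2 and 23.4 CPM against 18 and 17.3 CPM (FDR = 0.391). Without AngII+3W replicate 1, 4 of the 21 were below an unadjusted p of 0.05. Calr, the lumenal calcium-binding chaperone, was 341 and 302 CPM against 227 and 255 CPM (FDR = 0.454).

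Several growth arrest genes were lower at 3 weeks. Cdkn1a (p21), an inhibitor of cyclin-dependent kinases, was at 66.7 and 51.1 CPM in AngII+2W and at 19.2 and 16.8 CPM in AngII+3W (3.27-fold lower, log2 -1.71 ± 0.26, FDR = 0.157), and CTRL and AngII lay between 49.2 and 84.4 CPM. Gadd45b was at 8.49 and 9.12 CPM against 2.85 and 3.65 CPM (FDR = 0.157), Gadd45g at 37.4 and 29.4 CPM against 17.6 and 12 CPM (FDR = 0.31) and Trp53inp1, which p53 induces, at 153 and 163 CPM against 90.2 and 76.1 CPM (FDR = 0.297). These were the 4 lower genes among 19 of the p53 and senescence list, in which 1 gene, Trp53inp2, was higher (log2 0.47). Ddit4 (Redd1), an inhibitor of mTORC1 that glucocorticoids induce, was at 30 and 30.1 CPM against 14.7 and 16.3 CPM (FDR = 0.144). With Angptl4 (254 and 325 CPM against 151 and 152 CPM, FDR = 0.347), Zbtb16 and Errfi1 it made 4 lower and 0 higher of 16 glucocorticoid-responsive genes, whose median was -0.32.

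Matrix genes were lower at 3 weeks mainly in 1 library. Fn1, fibronectin, was at 3016 and 2532 CPM in AngII+2W and at 543 and 1201 CPM in AngII+3W (3.18-fold lower, log2 -1.67 ± 0.38, FDR = 0.374), and remained lower without AngII+3W replicate 1 (log2 -1.21, FDR = 0.477). Eln, elastin, was at 1869 and 1366 CPM against 289 and 907 CPM (FDR = 0.472), and without that replicate it had FDR = 0.798. The fibrillar collagens overlapped or nearly so, Col1a1 at 2649 and 1938 CPM against 588 and 1919 CPM (FDR = 0.697) and Col3a1 at 3141 and 2545 CPM against 958 and 2205 CPM (FDR = 0.618). The median of 27 collagen chains was -0.36 in the full comparison and -0.04 without AngII+3W replicate 1, that of 23 elastic fibre and lysyl oxidase genes -0.49 and -0.05, and that of 24 matricellular genes -0.60 and -0.30. Fibroblast markers had the same order, with summed levels of 9272 and 6704 CPM in AngII+2W and 3358 and 7021 CPM in AngII+3W, and a median of -0.60 that became -0.19. Sparc, a matricellular protein that binds collagen, was at 1661 and 1276 CPM against 651 and 1031 CPM (FDR = 0.451) and without replicate 1 had FDR = 0.847.

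**Figure D5:**
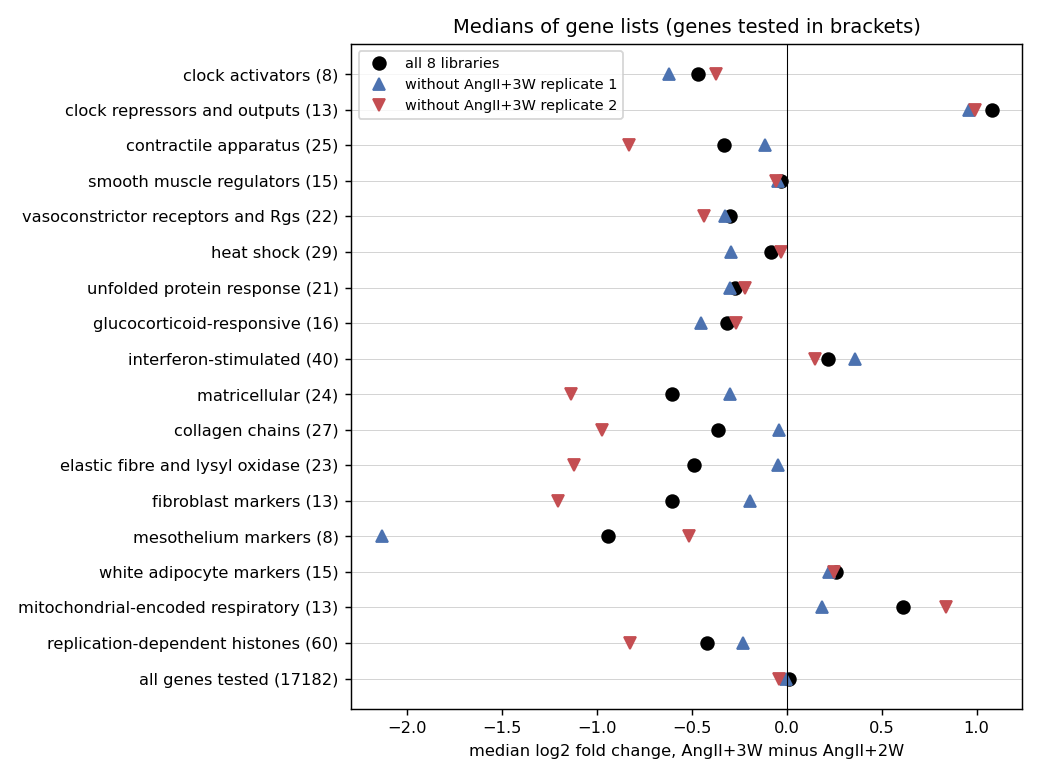
Median log2 fold change of AngII+3W over AngII+2W (x axis) of 17 gene lists and of all genes (y axis, number of genes tested in brackets) with all 8 libraries (circles), without AngII+3W replicate 1 (blue triangles) and without AngII+3W replicate 2 (red triangles). The matrix, fibroblast and contractile lists lie closer to 0 without replicate 1 and further below 0 without replicate 2, and the clock lists keep their sign.

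The Wnt ligand Wnt2b was at 18.1 and 15.2 CPM against 6.93 and 5.58 CPM (log2 -1.42 ± 0.21, FDR = 0.146), below all other libraries. Sost, a secreted Wnt inhibitor that aortic smooth muscle makes, was at 108 and 93.3 CPM against 21.5 and 53.9 CPM (FDR = 0.391), and Sfrp4, another Wnt inhibitor, at 54.1 and 42.5 CPM against 14.3 and 27.3 CPM (FDR = 0.442). Igfbp6, which binds insulin-like growth factor 2, was 2.77-fold lower (63.1 and 50.8 CPM against 19.1 and 22 CPM, FDR = 0.174). Of 60 replication-dependent histone genes 13 were lower and 0 higher at an unadjusted p below 0.05, with a median of -0.42 that was -0.23, with 5 lower, without AngII+3W replicate 1. H4c2 was at 8.54 and 7.78 CPM against 3.98 and 4.24 CPM (FDR = 0.391), and members of this family share near-identical sequence, so single histone counts are uncertain. Of 40 cell cycle genes 3 were lower and 0 higher, beside 4.22% lower and 4.61% higher over all genes.

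Interferon-stimulated genes were higher in 9 of 40 at an unadjusted p below 0.05 and lower in 0, with both AngII+3W libraries above both AngII+2W libraries in 24 of 40, against 20.7% of all genes, and a median of 0.22. The median was 0.36 with 11 higher without AngII+3W replicate 1, 0.15 with 4 higher without AngII+3W replicate 2, and the list had 3 and 4 higher without AngII+2W replicates 1 and 2. Iigp1, an interferon-induced GTPase, was at 37.5 and 37.4 CPM against 59.6 and 68.8 CPM (FDR = 0.174) and Gbp4 at 30.7 and 35.2 CPM against 58.4 and 60.8 CPM (FDR = 0.3). The level of Rsad2, a classical antiviral gene, overlapped and was numerically lower (log2 -0.44, FDR = 0.655). Neutrophil genes were at low levels and lower, with S100a8 and S100a9 near the limit of detection in AngII+3W. S100a9 was at 3.68 and 5.04 CPM against 0.376 and 0.537 CPM (log2 -3.24 ± 0.50, FDR = 0.17). S100a8 was at 2.01 and 2.84 CPM against 0.43 and 0.215 CPM (FDR = 0.174) and Csf3r at 5.32 and 9.87 CPM against 1.72 and 3.22 CPM (FDR = 0.439). These genes were 3 of the 4 neutrophil markers that could be tested. Macrophage markers (15 genes) and MHC class II genes (10 genes) had 0 members below an unadjusted p of 0.05.

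C3, the central complement component, was at 1893 and 1582 CPM against 1176 and 1214 CPM (FDR = 0.425) and was one of 4 lower complement genes of 20, beside 1 higher. Without AngII+3W replicate 1 the list had 1 lower and 0 higher, and its median went from -0.44 to -0.19. Mesothelial markers, from the cell sheet that covers the chest organs, were lower in 4 of 8, and here AngII+3W replicate 2 was the lowest, with summed levels of 131 and 115.8 CPM in AngII+2W and 83.1 and 31.57 CPM in AngII+3W. Upk3b was at 43.3 and 39.4 CPM against 21.5 and 7.36 CPM (FDR = 0.391) and Msln at 18.8 and 17.6 CPM against 12.2 and 7.46 CPM (FDR = 0.391). Endothelial markers were balanced, with a median of -0.09 over 17 genes, Tek higher (FDR = 0.539) and Cldn5 lower (FDR = 0.559).

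Several single genes of fat and fuel use were higher at 3 weeks. Tmem120a (ENSMUSG00000039886, chromosome 5, 135735485 to 135744448 on the reverse strand), a membrane protein of the nuclear envelope, was at 26 and 23 CPM in AngII+2W and at 58.9 and 55.2 CPM in AngII+3W (2.33-fold higher, log2 1.22 ± 0.12, FDR = 0.0901). CTRL and AngII lay between 37.6 and 48.1 CPM, so AngII+2W was below and AngII+3W above the other libraries. Ucp3, a mitochondrial carrier of muscle and brown fat, was at 28 and 30.1 CPM against 93.4 and 65.7 CPM (FDR = 0.144), and Acot4, a peroxisomal thioesterase, at 10.2 and 9.66 CPM against 27.4 and 20.2 CPM (FDR = 0.144). RNA of Nnt, the gene of the mitochondrial transhydrogenase, was at 9.42 and 9.28 CPM against 18.2 and 20 CPM (FDR = 0.144), and the enzyme was not measured. Slc5a6, the transporter of biotin and pantothenate, was at 16.7 and 17.8 CPM against 40.9 and 35.9 CPM (FDR = 0.164). Without AngII+3W replicate 1 these 5 genes kept log2 fold changes of 1.17, 1.18, 1.02, 1.10 and 1.06 in the order given.

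White fat markers were higher in 5 of 15 (2 without AngII+3W replicate 1 and 0 without AngII+2W replicate 2) and lower in 1, with summed levels of 15680 and 14700 CPM in AngII+2W and 20140 and 18080 CPM in AngII+3W. Acsl1, which activates fatty acids, was at 1076 and 1085 CPM against 2289 and 1905 CPM (FDR = 0.3), Plin1, the coat protein of lipid droplets, at 703 and 637 CPM against 900 and 954 CPM (FDR = 0.532), and Lep, leptin, at 19.8 and 11 CPM against 25.4 and 38.4 CPM (FDR = 0.559). Adrb3, the beta 3 adrenoceptor of fat cells, was lower at 204 and 183 CPM against 125 and 133 CPM (FDR = 0.401). Of the 20 lipogenic enzymes 2 were higher, Acsl1 among them, and 1 was lower, beside 4.61% higher and 4.22% lower over all genes. The median of the list was -0.21. The lower gene, Acly, which makes the acetyl-CoA for fatty acid synthesis, was at 3852 and 3450 CPM against 1595 and 2599 CPM (FDR = 0.549) and Fasn at 24611 and 23162 CPM against 15331 and 19422 CPM (FDR = 0.724). In brown fat, Dio2, which activates thyroid hormone, was at 42.4 and 21.8 CPM against 120 and 112 CPM (FDR = 0.391) and Ucp1, the uncoupling protein, at 409 and 455 CPM against 1216 and 679 CPM (FDR = 0.395, and FDR = 0.774 without AngII+3W replicate 1). All 13 mitochondrially encoded respiratory genes had a positive log2 fold change, with a median of 0.61, but only mt-Nd5 was below an unadjusted p of 0.05, and the median was 0.18 without AngII+3W replicate 1, where 18.3% of counts were mitochondrial against 13.5% in replicate 2 and 12.1% and 11.1% in AngII+2W. The 77 nuclear genes of the respiratory chain had a median of -0.08.

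Of the remaining genes with the smallest p, Plekha6 was at 12.9 and 13.7 CPM against 32.2 and 31.2 CPM (log2 1.25 ± 0.15, FDR = 0.144) and Coro6, a coronin that binds actin, at 14.6 and 14.4 CPM against 38.1 and 32.1 CPM (FDR = 0.144). Gm5641 was 1.72-fold higher (FDR = 0.174). Rnf125, an E3 ubiquitin ligase, was at 41.6 and 45.8 CPM against 23 and 19.7 CPM (FDR = 0.144) and Crip1, a LIM-domain protein, at 46.3 and 39.5 CPM against 25.3 and 25.4 CPM (FDR = 0.174). With those described above, these complete the 15 higher and 15 lower genes of the smallest p, and leaving out each of the 8 libraries in turn turned the direction of none of the 30.

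Leaving out 1 of the 4 compared libraries at a time changed the counts over all genes too, to 3.42% higher and 3.03% lower at an unadjusted p below 0.05 without AngII+3W replicate 1, 6.71% and 8.17% without AngII+3W replicate 2, 2.21% and 2.71% without AngII+2W replicate 1 and 1.81% and 2.44% without AngII+2W replicate 2. Over these 4 fits the clock repressors and outputs had 8 to 11 higher and the activators 3 to 4 lower. The list of 13 genes selected against CTRL had 8 to 9 lower and the p53 and senescence list 4 to 5. Contractile genes had 5 to 16 lower, vasoconstrictor receptors and Rgs genes 4 to 6, heat shock genes 3 to 5, the unfolded protein response 3 to 6 and glucocorticoid-responsive genes 2 to 6. The cGMP list had 1 to 5 lower, the potassium channels 0 to 7 higher and 2 to 5 lower, and the cold-inducible genes 0 to 3 higher. Replication-dependent histones had 3 to 19 lower, complement 1 to 9, mesothelial markers 3 to 7 and cell cycle genes 1 to 2. In the nerve list 3 to 5 were higher and 5 to 7 lower.

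Of the 165 genes named here or in the tables behind these lists that were below an unadjusted p of 0.05, 110 were so without AngII+3W replicate 1, 137 without AngII+3W replicate 2, 103 without AngII+2W replicate 1 and 111 without AngII+2W replicate 2. Besides the striated, matrix and contractile genes for which it is stated above, those described and not below it without AngII+3W replicate 1 were Sfrp4, Csf3r, Calr, Kcna1, Npr1, Npr3, Htr1b, Rgs4, Nefl, Errfi1, Stip1, Hsp90aa1, Cldn5, Plin1, Acly, Trp53inp2, Ucp1 and mt-Nd5.

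The striated muscle genes themselves show how far 1 library shaped the comparison. Of 50 such genes tested, 43 were higher at an unadjusted p below 0.05 and 0 lower. Neb, nebulin of skeletal muscle, was at 685 CPM in AngII+3W replicate 1, at 9.88 CPM in replicate 2 and at 8.63 and 5.9 CPM in AngII+2W. Without AngII+3W replicate 1 the log2 fold change of Neb was 0.44 (FDR = 0.899), and the skeletal list had 0 genes below an unadjusted p of 0.05. The cardiac list behaved otherwise, since Actc1 (13.7 and 1.99 CPM against 600 and 37.5 CPM) and Mybpc3 (4.06 and 0.483 CPM against 154 and 11.9 CPM) were above both AngII+2W libraries in both AngII+3W libraries, and their log2 fold changes without replicate 1 were 2.24 and 2.34. Heart genes were also plentiful in CTRL, where Actc1 was at 617 and 245 CPM, and the summed cardiac markers were lowest in AngII+2W of the 4 groups.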

How the data were processed

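Aortic tissue of 2 mice, a part of each vessel, was pooled for each of 8 paired-end, ribosomal RNA-depleted libraries, of which the 2 AngII+3W and 2 AngII+2W libraries are compared here; groups and replicate numbers were taken from the labels. The deposited values are expected counts per gene, which the authors estimated with Salmon on Ensembl cDNA of GRCm38.p6 and summed from transcripts to genes; per the labels, FastQC, MultiQC and edgeR were also used. The authors' length offsets were not used here. Counts from such estimates can divide reads between near-identical genes with error, and total RNA with pooled tissue mixes cell types. The counts were tested, already whole numbers, with edgeR 4.0.16 in R 4.3.3 (filterByExpr, TMM, quasi-likelihood F test in its legacy form, two-sided, Benjamini-Hochberg adjustment over 17182 genes). All 8 libraries were fitted in 1 model with a coefficient per group and 4 residual degrees of freedom, and AngII+3W was contrasted with AngII+2W. SE is the log2 fold change divided by the square root of F, and CPM uses TMM-scaled library sizes. Before TMM scaling, a library of 18130441 to 21498200 counts puts 3 counts at 0.14 to 0.165 CPM, and such limits cover counting error only. The procedure was tested on simulated data. Alternatives were other normalizations, count filters, tests (DESeq2 1.42.0, limma 3.58.1 voom, the likelihood ratio test and the newer quasi-likelihood form), fitting only the 4 libraries, a replicate block and leaving out each library.

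The genes named were, first, those of smallest p, 15 in each direction, provided that their libraries did not overlap and averaged at least 1 CPM over the 4 libraries, and then up to 4 members in each direction of a described list, any member of the clock and contractile lists, the 13 genes of the study, marker genes, and the genes next to an FDR of 0.1; genes outside this rule are said to be so where they are named. The gene lists and the comparison were chosen with earlier results of these data known, so counts over lists are descriptions without a test. Gene positions are from GENCODE M21 (GRCm38) and promoter sequences from RefSeq (GRCm38.p6). A few genes of the lists are not reported here.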

Additional observations from a re-analysis of the deposited data

How the results depend on the processing

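The number of genes below an FDR of 0.05, 0 in the comparison as reported, was 11 when every gene with at least 1 count was tested, 216 with DESeq2, 273 with the likelihood ratio test and 2 with a replicate block, and ranged from 0 to 432 when a library was left out, the 432 coming without AngII+3W replicate 2, which leaves the library with striated muscle RNA alone in its group and takes its spread from the other groups. The number below an FDR of 0.1, reported as 2, was 39, 343, 431 and 6 under the same 4 settings, was 0 with library totals alone, with limma-voom, with the newer quasi-likelihood fit and with only the 4 libraries of the 2 groups, and ranged from 0 to 770 with a library left out (5 without AngII+3W replicate 1, 0 without any 1 of the AngII+2W, CTRL or AngII libraries). The 1517 genes at an unadjusted p below 0.05 stayed within 1.5 times under all other settings and ranged from 759 (without AngII+2W replicate 2) to 2658 (without AngII+3W replicate 2), with 881 without AngII+2W replicate 1. Which cause lies behind these differences was not tested.

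The replicate numbers are shared between groups only as numbers; the replicate differences of AngII+2W and AngII+3W correlated at 0.161 across 15158 genes, and the block gave 1745 genes at an unadjusted p below 0.05. Among 189 named genes, none of 2050 fold changes under other normalizations, filters, tests, library sets or the block turned sign, and 13 of 1511, in 12 genes, did when a library was left out. Their log2 ranges over the left-out libraries were -0.117 to 2.682 for Des, -0.810 to 0.004 for Mylk, -0.344 to 0.854 for Smtn, -1.046 to 0.044 for Myh11, -1.071 to 0.111 for Actn1, -0.959 to 0.116 for Flna, -0.551 to 0.015 for Myocd, -0.571 to 0.003 for Bhlhe40, -0.268 to 0.557 for Per1, -0.490 to 0.095 for Cry1, -0.377 to 0.117 for Rorb and -3.707 to 0.437 for Gm13034. At the depth of these libraries low genes are near the limit of 3 counts, as Th is with 1 and 4 counts in AngII+3W.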

Other observations

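A few genes of organs near the aorta were found only in part of the 4 libraries. They were looked up after their values had been seen, and they are given in counts because 1 group held none or almost none. Bpifa1, a secreted protein of airway epithelium, had 3521 and 23 counts in AngII+3W and 0 and 0 counts in AngII+2W, with 2 and 0 counts in CTRL and 19 and 0 counts in AngII. Rag1, a recombinase of developing lymphocytes, had 15 and 63 counts in AngII+3W against 0 and 0 counts at 2 weeks, and at most 7 counts in any CTRL or AngII library. Alb, the albumin of liver, had 219 and 288 counts in AngII+2W and 17 and 1 counts in AngII+3W, but the other groups were split as well, with 1 and 579 counts in CTRL and 723 and 1 counts in AngII. Fgb, a fibrinogen chain that liver makes, had the same pattern, with 17 and 40 counts in AngII+2W, 0 and 0 counts in AngII+3W, 0 and 50 counts in CTRL and 45 and 0 counts in AngII.

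Further genes of sympathetic neurons, also looked up afterwards, were highest in AngII+2W. Slc18a2, the vesicular monoamine transporter, was at 3.03 and 6.76 CPM against 1.45 and 1.56 CPM, and Gap43, a protein of growing axons, at 1.31 and 3.6 CPM against 0.269 and 0.644 CPM. Phox2a, a factor that specifies noradrenergic neurons, had 13 and 36 counts in AngII+2W and 1 and 3 counts in AngII+3W. Stmn2, a tubulin-binding protein of neurons, was at 4.52 and 10.6 CPM against 3.55 and 3.28 CPM, and here CTRL and AngII lay between 2.44 and 2.92 CPM.

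In T cell markers 2 of 11 genes were higher at an unadjusted p below 0.05 in edgeR's quasi-likelihood test, Trac with FDR = 0.521 and Cd3d with FDR = 0.537, and without AngII+3W replicate 1 these were FDR = 0.849 and FDR = 0.869. Nfkbia, the inhibitor of NF-kappa B, was at 59.8 and 61.1 CPM in AngII+2W and at 39.9 and 46.1 CPM in AngII+3W (FDR = 0.395), and was above an unadjusted p of 0.05 without AngII+3W replicate 1, as was Gap43. Sod3, the extracellular superoxide dismutase of the vessel wall, was at 229 and 203 CPM in AngII+2W and at 97.2 and 151 CPM in AngII+3W (log2 -0.80, FDR = 0.391), below CTRL at 262 and 263 CPM and AngII at 233 and 221 CPM. Mmrn1, a marker of lymphatic endothelium, was at 15 and 15.6 CPM against 8.33 and 7.52 CPM (FDR = 0.391), with CTRL at 6.57 and 8.04 CPM and AngII at 14.6 and 23.1 CPM.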
